A study of Mus musculus with 6 samples.

Results

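The expression of 37 established p53 target genes was compared between iASPP KO and iASPP WT primary mouse keratinocytes. The genes act in cell cycle arrest, DNA repair, feedback on p53, stress metabolism and death receptor signaling. They were chosen as a list of names of established p53 targets, with the BCL2 family left out. Earlier results of these data were known when the list was chosen. All 37 were found among the 55367 gene names of the count table, and all 37 had enough counts to be tested, among 14916 tested genes.

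Keratinocytes were isolated from the skin of day 2 *Ppp1r13l*flox/flox;Cre+ERT pups of a mixed C57BL/6 and 129/Sv background. *Ppp1r13l* encodes iASPP, and the Cre recombinase is expressed from the widely active ROSA26 locus and enters the nucleus once tamoxifen binds it. The cells of each of 3 batches were divided, and after 24 h of culture received low-calcium medium with tamoxifen (iASPP KO) or without it (iASPP WT), which gave 3 libraries per group and 6 in all. All 6 cultures thus carried the floxed alleles and the recombinase, no culture lacking Cre received tamoxifen, and the drug and the deletion cannot be told apart. Low calcium keeps keratinocytes in a proliferating, basal-like state.

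p53 is a transcription factor that DNA damage and other stresses stabilize. It switches on an arrest program led by *Cdkn1a*, repair and antioxidant genes, and death genes, and it induces its own inhibitor *Mdm2*, which closes a negative feedback loop. iASPP is the inhibitory member of the ASPP family and binds p53 and its relatives p63 and p73. p63 is the family member that basal keratinocytes need, and it can bind many of the same elements as p53.

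p53 binds a response element of 2 half-sites of 10 bases, each with 3 purines, a C, 2 bases that are A or T, a G and 3 pyrimidines. RefSeq promoter windows (GRCm38.p6, 250 bases before to 50 bases after a start) were found for 29 of the 37 genes, with 45 windows in all. Those of *Xpc*, *Tnfrsf10b*, *Ptp4a3*, *Rrm2b*, *Trp53inp1*, *Ddb2*, *Zmat3* and *Perp* were not analysed here. The windows were searched for 2 adjacent half-sites with no base between them and with the C and G of both present. The element is its own reverse complement, so a match counts for both strands. Printed here are the matches that differ from the element by at most 3 letters, a limit set after the matches were seen. They are shown because they are the closest matches to the element that the windows held. Each is written 5′ to 3′ on the strand of the gene, with the element in capitals.
Cdkn1a: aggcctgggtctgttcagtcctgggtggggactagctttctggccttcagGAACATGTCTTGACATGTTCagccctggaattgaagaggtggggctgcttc
Ccng1: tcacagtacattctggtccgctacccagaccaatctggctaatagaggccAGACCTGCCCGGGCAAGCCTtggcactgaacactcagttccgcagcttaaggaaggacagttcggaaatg
Ckap2: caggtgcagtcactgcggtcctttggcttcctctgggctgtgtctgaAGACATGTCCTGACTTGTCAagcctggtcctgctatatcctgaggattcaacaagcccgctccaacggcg
Sesn1: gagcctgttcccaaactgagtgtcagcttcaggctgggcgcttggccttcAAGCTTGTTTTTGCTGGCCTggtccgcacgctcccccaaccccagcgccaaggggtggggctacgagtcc
Aen: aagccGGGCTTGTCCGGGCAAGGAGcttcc

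The *Cdkn1a* stretch lies on the plus strand at chr17:29090878-29090978, and its element starts 51 bases before the upstream one of the gene's 2 starts, which is 2790 bases before the downstream start. The last 3 bases of the stretch are exonic in GENCODE vM21. The *Ccng1* stretch (chr11:40755412-40755531, minus strand) and the *Ckap2* stretch (chr8:22185953-22186069, minus strand) lie outside annotated genes, with the elements starting 195 and 203 bases before the start. The *Sesn1* stretch (chr10:41887216-41887335, plus strand) is intronic in the longer *Sesn1* transcripts and its element starts 173 bases before the internal start. The *Aen* stretch (chr7:78895932-78895961, plus strand) lies in an exon, in the 5′ UTR, 10 to 29 bases after the upstream start and 121 to 102 bases before the downstream start. The *Cdkn1a* and *Ccng1* elements differ from the p53 element by 1 letter, at position 11 in *Cdkn1a* and position 5 in *Ccng1*, counted from the 5′ end of the element. *Ckap2* differs by 2 letters (positions 11 and 20), *Sesn1* by 3 (positions 11, 12 and 16) and *Aen* by 3 (positions 18, 19 and 20).

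A match within 3 letters was found for 5 of the 29 genes (17.2%), against 1.63% of 27025 genes in the same table, and in 13.3% of the 45 windows against 1.38% of 32851 windows of this length. A match within 1 letter was found for 2 of the 29 genes and 0.0814% of all genes. The genes were listed as established p53 targets, so a higher share than among all genes comes with the choice of the list. It is no result about iASPP. The matches are a description of the letters, not of binding. The calls between iASPP KO and iASPP WT differed among the 5 genes, but differences between the genes were not tested. *Cdkn1a* rose in iASPP KO, while the log2 fold change was 0.067 for *Ccng1*, -0.71 for *Ckap2*, 0.20 for *Sesn1* and 0.16 for *Aen*, and none of these 4 passed the threshold. Of the other called genes with a window, the best match differed by 4 letters in *Dcxr*, 5 in *Plk3*, 6 in *Ak1*, 9 in *Mdm2* and 12 in *Gadd45a*. Elements outside the windows, in introns or further from a start, were not searched. A poor best match here therefore does not mean that a gene lacks a p53 element.

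**Figure D1:**
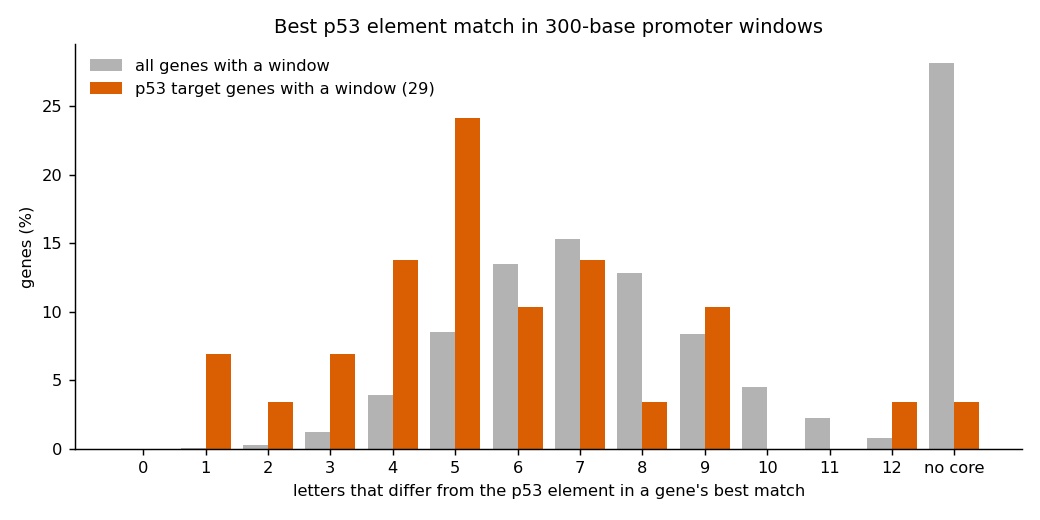
Share of genes (vertical axis, %) by the number of letters in which the best match in a gene's promoter windows differs from the p53 element (horizontal axis), for the 29 p53 target genes with a window and for all 27025 genes; "no core" marks genes without the C and G letters of both half-sites. At 3 letters or fewer lie 5 of the 29 p53 target genes and 1.63% of all genes. At 0 letters lie 0.0111% of all genes and none of the p53 target genes. The list was chosen as established p53 targets.

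The libraries held 20202517 to 25157117 counts, and 3 counts correspond to 0.123 to 0.141 CPM, the counts per 1000000 counts of a library. CPM values are scaled with TMM factors of 0.916 to 1.11 and are given for batches 1, 2 and 3 in that order. *Ppp1r13l* itself was at 14.3, 17.7 and 5.91 CPM in iASPP KO and 32.7, 45.1 and 21.02 CPM in iASPP WT, lower with tamoxifen in every batch (log2 fold change -1.45 ± 0.18 SE, adjusted p = 0.003 by edgeR). The table counts all exons of the gene together, so exons outside the deleted part can add to the remaining level. How complete the deletion was in these cultures cannot be read from such counts. Basal keratinocyte markers summed to 28112 to 30576 CPM in iASPP KO and 28108 to 33220 CPM in iASPP WT. Suprabasal markers summed to 988 to 3215 CPM and 954 to 2969 CPM, with both batch 3 cultures lowest. Of the 8 suprabasal markers *Krt10* and *Flg* fell (log2 fold change -1.31 and -0.89) and *Sbsn* rose (0.67). Fibroblast markers summed to 39.8 to 475 CPM and 38.9 to 692 CPM, with both batch 3 cultures highest, and of the 8 markers *Col1a2* and *Col3a1* fell (-0.55 and -0.87). Macrophage and leukocyte markers summed to 65.3 to 84.0 CPM in iASPP KO and 44.0 to 65.6 CPM in iASPP WT, melanocyte markers to 394 to 1033 CPM and 340 to 1082 CPM, and endothelial markers to 2.72 to 13.02 CPM and 3.75 to 7.05 CPM. Of the macrophage markers *Csf1r* rose (1.11). None of these markers was at 0 in all 6 libraries. The part of these differences in the values below was not tested, and values within each batch are given instead.

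Of the 37 genes, 7 rose significantly in iASPP KO: *Mdm2* and *Trp53inp1*, which regulate p53, *Cdkn1a*, *Gadd45a* and *Plk3*, which slow or stop the cell cycle, and the metabolic enzymes *Ak1* and *Dcxr*. Among all tested genes, 2.17% passed with the higher level in iASPP KO, and 1.95% with the higher level in iASPP WT (edgeR quasi-likelihood test with batch and condition in the model, Benjamini-Hochberg adjusted p under 0.05). None of the 37 genes was significantly higher in iASPP WT by edgeR. The count in that direction was 2 at an unadjusted p under 0.05 (*Ckap2* and *Apaf1*), where 8.09% of all genes lie, 1 by DESeq2 (*Ckap2*, beside 3.31% of all genes with an adjusted p) and 0 by limma-voom (beside 2.6%). Higher in iASPP KO were 8 of the 37 genes by DESeq2, the same 7 and *Gdf15*, beside 3.91% of all genes with an adjusted p, and the same 7 by limma-voom, beside 3.25%. At an unadjusted p under 0.05 by edgeR, 12 of the 37 genes were higher in iASPP KO, beside 8.66% of all genes. The 12 include *Gdf15*, which reached the filter on low counts through the iASPP KO libraries. The 7 rises were moderate, from 1.51-fold (*Gadd45a*) to 1.79-fold (*Dcxr*). In bulk RNA, fewer cells that express a gene and less RNA per cell cannot be told apart.

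The median log2 fold change of the 37 genes was 0.21, against 0.0057 for all tested genes, with 28 genes above 0 and 9 below. Taken by batch, the median was 0.18, 0.11 and 0.47 for batches 1, 2 and 3. In all 3 batches 14 of the 37 genes were higher in iASPP KO, beside 19.5% of all genes, and 3 were lower (*Ckap2*, *Ddb2* and *Apaf1*), beside 19.5%. For 7 genes every iASPP KO culture lay above every iASPP WT culture, beside 5.26% of all genes, and for *Apaf1* every iASPP KO culture lay below, beside 5.46%. These 7 were *Trp53inp1*, *Cdkn1a*, *Gadd45a*, *Ak1* and *Dcxr*, which passed the threshold, and *Sesn2* and *Gdf15*, which did not. *Gdf15*, which is also among the 14, reached the filter on low counts through the iASPP KO libraries. Its place in these counts is therefore not independent of the filter. Without batch as a term, 0 of the 37 genes and 0 of all genes passed, with 6 of the 37 at an unadjusted p under 0.05 and higher in iASPP KO. Without batch 1, 4 of the 37 genes were significantly higher in iASPP KO (1.09% of all genes), without batch 2 also 4 (1.14%), and without batch 3 the count was 8, where the share of all genes rose to 5.2%. *Ckap2* was significantly higher in iASPP WT, alone of the 37 genes, without batch 3 (4.34% of all genes in that direction), with no filter on low counts (1.54%) and with robust dispersion (2.41%), while without batch 1 and without batch 2 the count was 0 (0.978% and 0.768%). The count higher in iASPP KO was 9 with no filter on low counts (1.95% of all genes) and 7 with robust dispersion (2.57%).

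**Figure D2:**
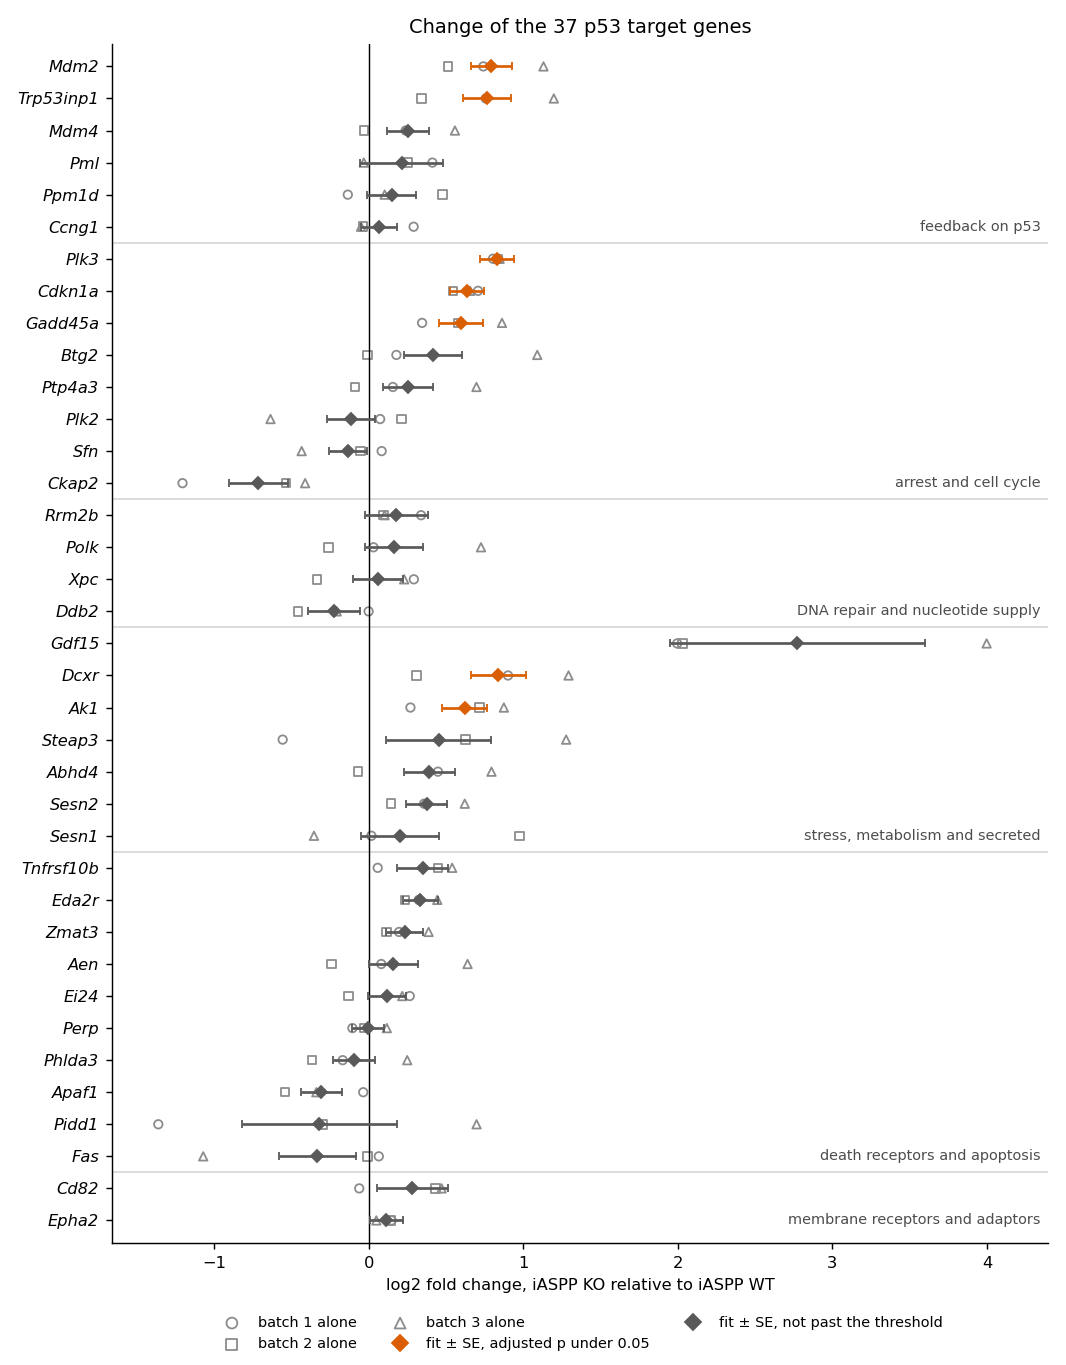
Log2 fold change (horizontal axis, positive where iASPP KO was higher) for each of the 37 genes (vertical axis, grouped by role); diamonds are the edgeR fit with its SE, in orange past the adjusted p threshold, and open symbols are the 3 batches taken alone. The 7 orange genes lie between 0.60 and 0.84, *Gdf15* lies furthest to the right with a wide SE, and *Ckap2* furthest to the left.

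The genes that feed back on p53 were the first group, with 2 of 6 significantly higher in iASPP KO and a median log2 fold change of 0.23. *Mdm2* (chromosome 10, 117688875 to 117710758, GRCm38), the ubiquitin ligase that marks p53 for degradation, was at 246, 308 and 158 CPM in iASPP KO and 147, 216 and 72.3 CPM in iASPP WT. The levels differed between batches, with batch 3 lowest and batch 2 highest in both groups, so the groups overlapped although every iASPP KO culture exceeded the iASPP WT culture of its own batch. The log2 fold change was 0.79 ± 0.13 (SE, adjusted p = 0.0118), and 0.74, 0.51 and 1.13 in the 3 batches. *Trp53inp1* (chromosome 4, 11156431 to 11174379), a stress-induced nuclear protein that promotes p53 activity, was at 703, 692 and 816 CPM in iASPP KO and 416, 545 and 356 CPM in iASPP WT. The groups did not overlap, with a mean of 737 ± 68.8 CPM with tamoxifen and 439 ± 96.97 CPM without (SD, n = 3). Its log2 fold change was 0.77 ± 0.15 (adjusted p = 0.0229), smallest in batch 2 (0.76, 0.34 and 1.20 in the 3 batches). *Mdm2* and *Trp53inp1* passed the threshold with each batch left out in turn.

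The other 4 feedback genes did not pass. *Ccng1*, the cyclin G1 gene, whose protein recruits a phosphatase to Mdm2, was at 469.7, 467 and 534 CPM in iASPP KO and 384, 479.5 and 553 CPM in iASPP WT. Only the batch 1 cultures were apart, at log2 fold changes of 0.29, -0.038 and -0.050 in the 3 batches, and the fitted value was 0.067 ± 0.12 (adjusted p = 0.839). The log2 fold change was 0.25 ± 0.14 for *Mdm4*, the *Mdm2* homolog that masks the p53 activation domain, 0.21 ± 0.27 for *Pml*, the scaffold of nuclear bodies, and 0.15 ± 0.16 for *Ppm1d*, the Wip1 phosphatase that reverses damage signaling (adjusted p = 0.397, 0.772 and 0.726).

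**Figure D3:**
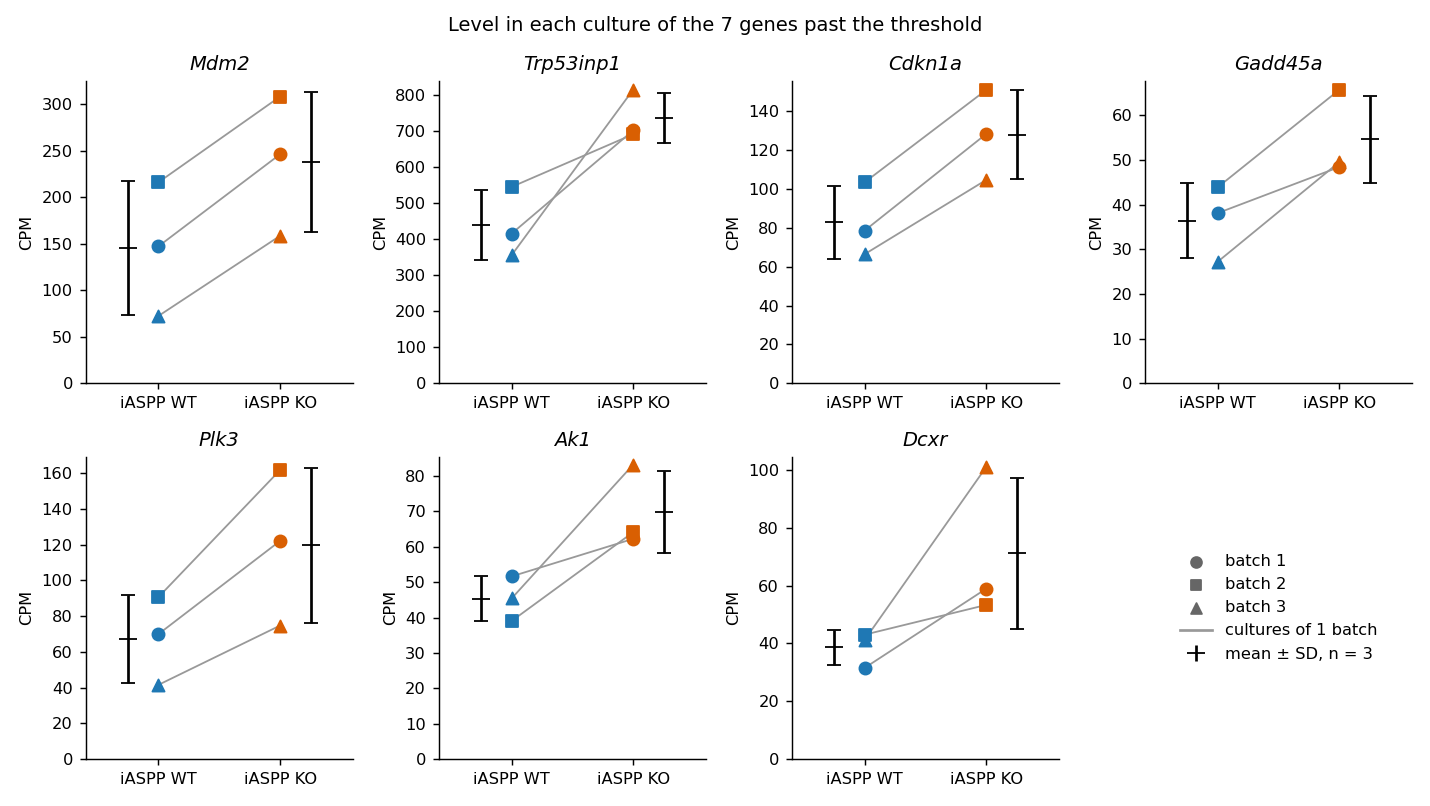
Level (vertical axis, CPM, starting at 0) of the 7 genes past the threshold in each iASPP WT and iASPP KO culture; symbols mark the batch, lines join the cultures of 1 batch, and bars give the mean and SD of 3 cultures. Every line rises from iASPP WT to iASPP KO, and for *Mdm2* and *Plk3* the batches differ so much that the 2 groups overlap.

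Of the 8 arrest and cell cycle genes, 3 rose in iASPP KO and the median log2 fold change was 0.34. *Cdkn1a* (chromosome 17, 29090976 to 29100727) encodes p21, the inhibitor of cyclin-dependent kinases that carries out p53-dependent arrest. It was at 128, 151 and 105 CPM in iASPP KO and 78.6, 103 and 66.5 CPM in iASPP WT, with every iASPP KO culture above every iASPP WT culture. The log2 fold change was 0.64 ± 0.11 (adjusted p = 0.0138), similar in size in the 3 batches (0.71, 0.55 and 0.66). *Plk3* (chromosome 4, 117128655 to 117133963), a polo-like kinase of the stress response, was at 122, 162 and 74.7 CPM in iASPP KO and 69.95, 90.7 and 41.5 CPM in iASPP WT. As for *Mdm2*, batch 3 was lowest in both groups, which overlapped. Its log2 fold changes by batch were 0.80, 0.84 and 0.85, the narrowest spread of the 7 called genes, and the fit gave 0.83 ± 0.11 (adjusted p = 0.0040).

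*Gadd45a* (chromosome 6, 67035096 to 67037457), a growth arrest and DNA damage protein, was at 48.4, 65.7 and 49.5 CPM in iASPP KO and 38.1, 43.9 and 27.2 CPM in iASPP WT, without overlap. The log2 fold change was 0.60 ± 0.14 (adjusted p = 0.049), just past the threshold, and 0.35, 0.58 and 0.86 in the 3 batches. The calls of *Cdkn1a* and *Gadd45a* did not hold with fewer libraries. Without batch 1 the adjusted p was 0.0725 for *Cdkn1a* and 0.0649 for *Gadd45a*, and without batch 2 it was 0.0697 and 0.216. The adjusted p ran for *Cdkn1a* from 5.5e-05 and for *Gadd45a* from 0.0051 to 0.973 over 12 alternatives, highest without batch as a term. *Plk3* passed with each batch left out in turn.

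*Btg2*, an antiproliferative cofactor, was at 129, 127 and 240.2 CPM in iASPP KO and 114, 128 and 113 CPM in iASPP WT, so a single culture, iASPP KO of batch 3, stood above the other 5. The fitted log2 fold change of 0.42 ± 0.19 (adjusted p = 0.296) did not pass, and the batch values were 0.18, -0.0084 and 1.09. *Ckap2*, a mitotic spindle protein whose transcript is high in dividing cells, was the gene with the lowest log2 fold change. It was at 12.7, 15.3 and 31.2 CPM in iASPP KO and 29.4, 22.1 and 41.5 CPM in iASPP WT, lower in iASPP KO in every batch (-1.20, -0.53 and -0.41), with groups that overlapped. The fitted value was -0.71 ± 0.19 (adjusted p = 0.0697), short of the threshold, which it passed without batch 3 (adjusted p = 0.0013, and 0.0013 to 0.97 over 12 alternatives). Of 10 proliferation genes, 7 fell in iASPP KO (*Mki67*, *Top2a*, *Ccnb1*, *Cdk1*, *Bub1*, *Mcm2* and *Mcm5*), beside 1.95% of all tested genes. All 10 had a negative log2 fold change, as did 7368 of the 14916 tested genes. The summed level of the 10 was 238 to 625 CPM in iASPP KO and 453 to 1079 CPM in iASPP WT. The part of dividing cells in the *Ckap2* value was not tested.

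*Sfn* encodes 14-3-3σ, which holds back the cell cycle in stressed epithelial cells and is abundant in epidermis. It was at 387, 332 and 389 CPM in iASPP KO and 365, 344 and 526 CPM in iASPP WT, with the iASPP WT culture of batch 3 above the other 5. Its log2 fold change was -0.13 ± 0.13 (adjusted p = 0.676), and the batch values were 0.084, -0.053 and -0.43. *Plk2*, the second polo-like kinase of the list, had batch values of 0.074, 0.21 and -0.64 and a fitted value of -0.11 ± 0.16 (adjusted p = 0.794), unlike *Plk3*. *Ptp4a3*, a phosphatase, had a log2 fold change of 0.25 ± 0.16 (adjusted p = 0.496).

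None of the 4 genes of DNA repair and nucleotide supply passed the threshold by edgeR, DESeq2 or limma-voom, and 0 had an unadjusted p under 0.05 by edgeR. Their median log2 fold change was 0.11. It was -0.22 ± 0.17 for *Ddb2* and 0.062 ± 0.16 for *Xpc*, the pair of genes that recognize ultraviolet damage in nucleotide excision repair. The value was 0.18 ± 0.21 for *Rrm2b*, a ribonucleotide reductase subunit, and 0.16 ± 0.19 for *Polk*, a translesion polymerase. *Polk* differed between batches, at 0.031, -0.26 and 0.73. Each SE was between 0.16 and 0.21, so a change the size of that of *Cdkn1a* would be 3 to 4 times the SE. A change of that size need not pass, as *Ckap2* at -0.71 ± 0.19 did not (adjusted p = 0.0697 by edgeR). The absence of calls among these 4 genes therefore does not exclude such a change.

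All 7 genes of stress, metabolism and secreted factors had a positive log2 fold change (median 0.45), and 2 rose significantly. The 7 include *Gdf15*, which was tested only through its iASPP KO levels. *Dcxr* (chromosome 11, 120725399 to 120727281), a reductase of sugars and dicarbonyl compounds, was at 58.97, 53.3 and 101 CPM in iASPP KO and 31.5, 43.03 and 41.2 CPM in iASPP WT. The groups did not overlap, and the iASPP KO culture of batch 3 was the highest by far. *Dcxr* had a log2 fold change of 0.84 ± 0.18 (adjusted p = 0.0293), and 0.90, 0.31 and 1.29 in the 3 batches. *Ak1* (chromosome 2, 32621758 to 32635058), the adenylate kinase that balances adenine nucleotides, was at 62.3, 64.2 and 83.3 CPM in iASPP KO and 51.6, 39.01 and 45.4 CPM in iASPP WT, again without overlap. Its log2 fold change was 0.62 ± 0.15 (adjusted p = 0.043), and 0.27, 0.72 and 0.87 in the 3 batches. The adjusted p of *Dcxr* was 0.0748 without batch 1, and that of *Ak1* was 0.224 without batch 2. It ran for *Dcxr* from 2.6e-06 and for *Ak1* from 0.0012 to 0.973 over 12 alternatives, highest without batch as a term.

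*Gdf15*, a secreted stress cytokine, had the largest log2 fold change and, in iASPP WT, the lowest level. It was at 3.25, 4.62 and 1.32 CPM in iASPP KO and 0.750, 1.07 and 0 CPM in iASPP WT, which are 73, 103 and 31 counts against 16, 26 and 0 counts. The groups did not overlap. In batch 3 iASPP KO was at least 9.86-fold higher, with iASPP WT set to the floor of 3 counts in that library. The fitted log2 fold change was 2.77 ± 0.83 (adjusted p = 0.104), which did not pass and depends on how the 0 is treated. *Gdf15* reached the filter on low counts through the iASPP KO libraries, and it passed the threshold without batch 3 (adjusted p = 0.0231) at a log2 fold change of 2.11. Over 11 alternatives the adjusted p ran from 0.0055 to 0.97.

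The sestrins *Sesn1* and *Sesn2* restrain mTORC1 signaling under stress. *Sesn2* was at 67.9, 70.1 and 72.2 CPM in iASPP KO and 52.99, 63.5 and 46.9 CPM in iASPP WT, without overlap and with iASPP KO levels within a narrow range. It did not pass, at a log2 fold change of 0.37 ± 0.13 (adjusted p = 0.181). *Sesn1* was at 14.7, 17.9 and 21.97 CPM in iASPP KO and 14.5, 9.06 and 28.1 CPM in iASPP WT. Its batches disagreed in direction (0.017, 0.98 and -0.35), and the fitted value was 0.20 ± 0.25 (adjusted p = 0.768). *Abhd4*, a lipase, was at 59.5, 48.5 and 74.1 CPM in iASPP KO and 43.6, 50.9 and 42.7 CPM in iASPP WT, higher in iASPP KO in batches 1 and 3 (0.45, -0.070 and 0.79), with a fitted value of 0.39 ± 0.17 (adjusted p = 0.268). *Steap3*, a metalloreductase, had batch values of -0.56, 0.63 and 1.28 and a fitted value of 0.45 ± 0.34 (adjusted p = 0.587).

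None of the 10 death receptor and apoptosis genes passed the threshold by edgeR, DESeq2 or limma-voom, and 2 had an unadjusted p under 0.05 by edgeR (*Eda2r*, higher, and *Apaf1*, lower). Their median log2 fold change was 0.056, with 5 above and 5 below 0. *Fas*, the receptor that triggers the extrinsic pathway, was at 18.98, 15.1 and 8.88 CPM in iASPP KO and 18.1, 15.2 and 18.8 CPM in iASPP WT. The groups lay close in batches 1 and 2 and apart in batch 3, where the iASPP KO culture was the lowest of the 6 (0.065, -0.0087 and -1.07), and the fitted value was -0.33 ± 0.25 (adjusted p = 0.583). *Eda2r*, a receptor for ectodysplasin A2, was at 99.5, 101 and 82.2 CPM in iASPP KO and 79.5, 85.4 and 60.4 CPM in iASPP WT, higher in iASPP KO in every batch. Its log2 fold change of 0.33 ± 0.12 did not pass (adjusted p = 0.166). *Tnfrsf10b*, the mouse death receptor for TRAIL, also had positive values in every batch (0.058, 0.45 and 0.54) and did not pass (adjusted p = 0.317).

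*Apaf1*, the core of the apoptosome, was at 71.6, 58.99 and 71.9 CPM in iASPP KO and 73.4, 85.9 and 90.99 CPM in iASPP WT, the one gene of the 37 with every iASPP KO culture below every iASPP WT culture. Its log2 fold change of -0.31 ± 0.13 did not pass (adjusted p = 0.272). *Perp*, a desmosomal protein of stratified epithelia that both p53 and p63 induce, was at 4571, 3644 and 2806 CPM in iASPP KO and 4918, 3720.4 and 2587 CPM in iASPP WT. The levels followed the batch, and within batches they lay close together, with a log2 fold change of -0.0061 ± 0.10 (adjusted p = 0.986). *Zmat3*, an RNA-binding regulator of splicing, was at 93.4, 84.04 and 59.6 CPM in iASPP KO and 81.5, 77.6 and 45.5 CPM in iASPP WT, higher in iASPP KO in every batch but with overlap, at 0.23 ± 0.12 (adjusted p = 0.376).

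The remaining death genes were *Aen*, an apoptosis-enhancing nuclease, *Ei24*, a protein of the endoplasmic reticulum, *Phlda3*, an inhibitor of Akt, and *Pidd1*, the scaffold of the PIDDosome. Their log2 fold changes were 0.16 ± 0.16, 0.12 ± 0.12, -0.096 ± 0.13 and -0.32 ± 0.50 (adjusted p = 0.705, 0.715, 0.8 and 0.822). *Pidd1* was the least precise of the 4, with batch values of -1.36, -0.30 and 0.70. The 2 membrane genes did not pass either. They were *Epha2*, an ephrin receptor kinase, at 0.11 ± 0.11 (adjusted p = 0.683), and *Cd82*, a tetraspanin, at 0.28 ± 0.23 (adjusted p = 0.621).

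**Figure D4:**
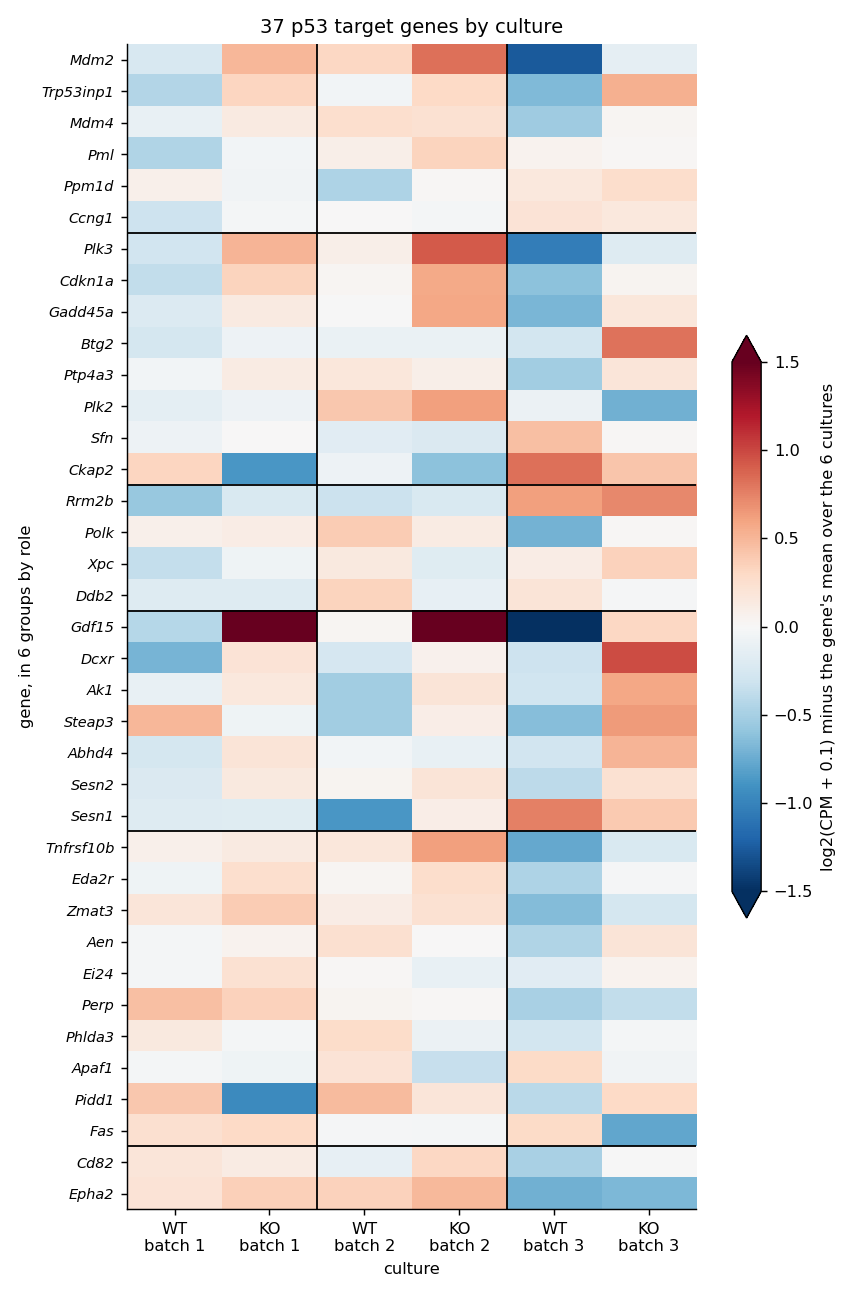
Level of the 37 genes (rows, in 6 groups by role) in the 6 cultures (columns, by batch), as log2(CPM + 0.1) minus the mean of the gene over the 6 cultures, with red above and blue below that mean; colors saturate at the ends of the scale. *Epha2* is low in both batch 3 cultures and *Rrm2b* is high in both. *Mdm2* and *Plk3* are lowest in batch 3 within each group, with the iASPP KO culture of batch 3 near the mean of the gene. *Cdkn1a* and *Sesn2* are redder in each iASPP KO culture than in the iASPP WT culture beside it.

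The cultures also differed by batch. The median range of a gene's mean log2 level over the 3 batches was 0.46 for the 37 genes and 0.594 for all tested genes. For *Mdm2* this range was 1.27 and for *Plk3* 1.12, both above their own log2 fold changes, and for *Cdkn1a* it was 0.583. Batch 3, where fibroblast markers were highest, also gave the largest within-batch log2 fold change of 6 of the 7 genes that rose (all but *Cdkn1a*, and by a small margin for *Plk3*) and of *Btg2* and *Gdf15*. Whether the batch and these changes are related was not tested.

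Levels between genes were compared per exon length, as RPKM, the CPM value divided by the exon length in kilobases. *Perp* was far above the rest, at 1882 ± 452 RPKM in iASPP KO and 1917 ± 597 RPKM in iASPP WT (SD, n = 3). *Sfn* (229 and 255 RPKM), *Plk2* (161 and 165) and *Ccng1* (139.6 and 134) followed. None of these 4 most abundant genes changed significantly. *Trp53inp1* was at 114 ± 10.6 RPKM in iASPP KO and 67.8 ± 14.98 RPKM in iASPP WT, which took it from below *Phlda3* (105 and 113 RPKM) to above it, although in iASPP KO the difference was within 1 SD of *Trp53inp1*. *Mdm2* was at 46.7 and 28.5 RPKM, *Plk3* at 47.3 and 26.6 RPKM, and *Cdkn1a* at 36.05 and 23.3 RPKM, and their ranges of 1 SD overlapped in both groups. *Gdf15* and *Pidd1* were lowest in iASPP WT, at 0.327 and 0.778 RPKM.

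**Figure D5:**
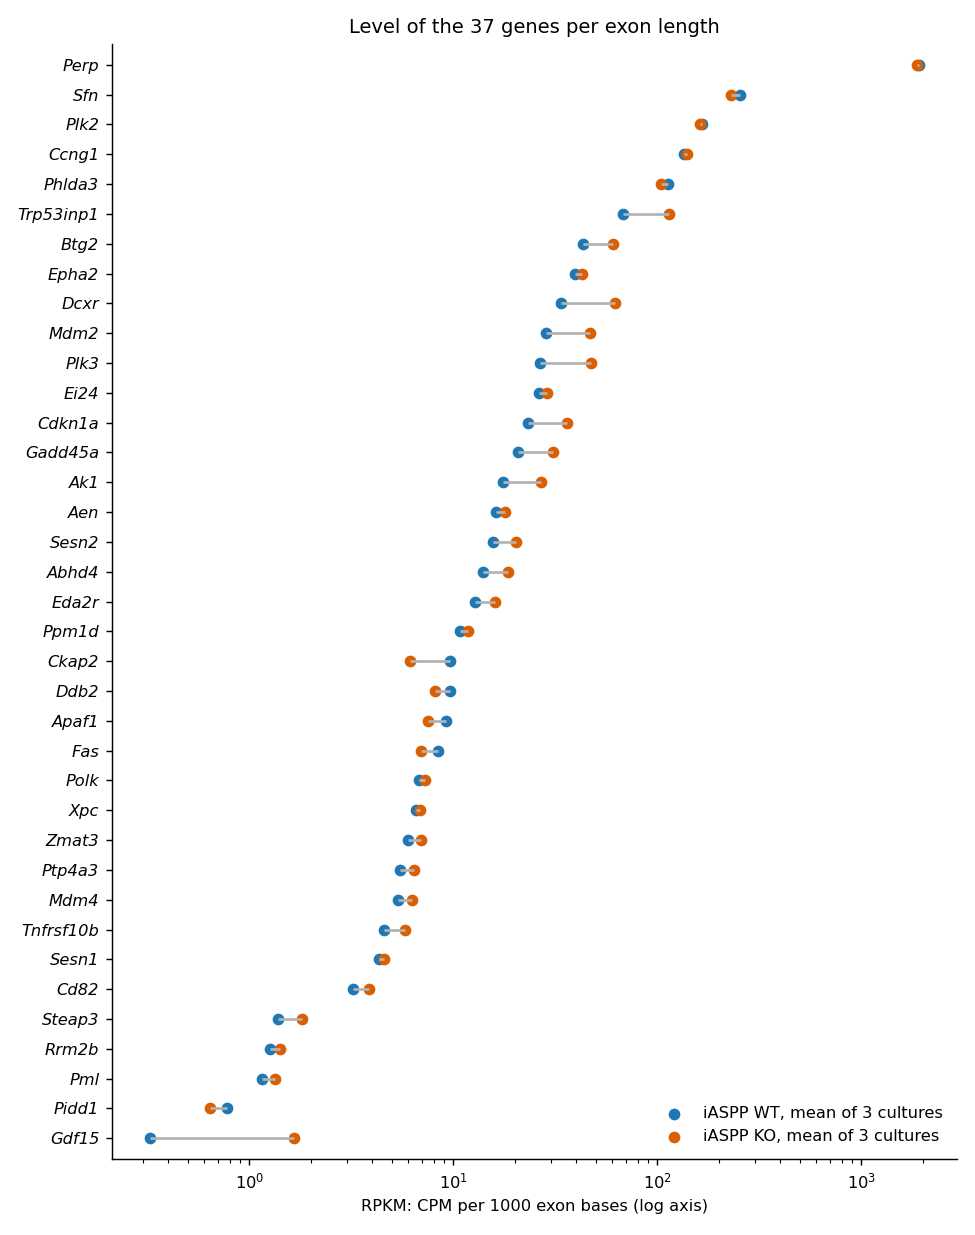
Mean level per exon length (horizontal log axis, RPKM) of the 37 genes (vertical axis, ordered by the iASPP WT level) in iASPP WT and iASPP KO, each a mean of 3 cultures. *Perp* lies at the top, apart from the rest, in both groups, *Gdf15* at the bottom, and the 7 genes that rose significantly lie in the upper part of the order, from 17.5 RPKM (*Ak1*) to 67.8 RPKM (*Trp53inp1*) in iASPP WT.

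The p53 family and genes that regulate p53 or act with it, together called p53 regulators here, were read for comparison. Of 25 p53 regulators, which include the p53 and ASPP families, damage kinases and ubiquitin ligases, 24 were tested, 0 rose and 3 fell (*Ppp1r13l*, *Trp73* and *Chek1*). Among all tested genes 2.17% rose and 1.95% fell. *Ppp1r13l* is the gene deleted by design, so its fall was fixed in advance, here and in the counts that follow. At an unadjusted p under 0.05 by edgeR, 2 of the 24 were higher in iASPP KO and 5 lower, beside 8.66% and 8.09% of all genes. DESeq2 called 0 higher and 4 lower, beside 3.91% and 3.31% of all genes with an adjusted p. *Trp53* was at 23.6, 21.4 and 28.98 CPM in iASPP KO and 24.6, 24.98 and 17.9 CPM in iASPP WT, with a log2 fold change of 0.13 ± 0.20 (adjusted p = 0.815) and batch values of -0.065, -0.22 and 0.70. *Trp63*, the p63 gene, was at 180.5, 161 and 125 CPM and 179.8, 171 and 168 CPM, with a log2 fold change of -0.17 ± 0.12 (adjusted p = 0.566). *Trp73*, the p73 gene, was at 1.51, 1.66 and 2.38 CPM in iASPP KO and 6.00, 5.25 and 6.24 CPM in iASPP WT, without overlap and at low levels, and fell by 1.67 on the log2 scale (adjusted p = 0.0399). *Chek1*, a kinase of the replication checkpoint, was at 4.54, 3.64 and 11.6 CPM and 10.8, 9.52 and 21.96 CPM, lower in iASPP KO in every batch (-1.24, -1.37 and -0.91, adjusted p = 0.0215). Without batch 1 the adjusted p was 0.208 for *Trp73* and 0.0723 for *Chek1*, and without batch 2 it was 0.141 and 0.103. It ran for *Trp73* from 0.0056 and for *Chek1* from 0.00056 to 0.973 over 12 alternatives, highest without batch as a term.

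Of 30 other p53 targets, 3 rose and 2 fell, beside 2.17% and 1.95% of all tested genes. Their median log2 fold change was 0.088, against 0.0057 for all tested genes. *Ier5*, an immediate-early stress gene, was at 287, 386 and 158 CPM in iASPP KO and 183, 246 and 115 CPM in iASPP WT (0.59 ± 0.11, adjusted p = 0.0179). *Ddit4*, an inhibitor of mTORC1, was at 188, 200.3 and 254 CPM and 108, 141 and 109.8 CPM (0.84 ± 0.14, adjusted p = 0.0119). *Igfbp3*, a secreted binding protein of insulin-like growth factors, was at 156, 184 and 129.6 CPM and 101, 114 and 69.4 CPM (0.74 ± 0.12, adjusted p = 0.0082). *Ddit4* and *Igfbp3* did not overlap between groups, while the *Ier5* groups did. *Thbs1*, the matrix protein thrombospondin 1, was at 669, 653 and 251 CPM in iASPP KO and 1492, 1309.6 and 536 CPM in iASPP WT (-1.08 ± 0.11, adjusted p = 0.0011). *Trp53i11* was at 42.5, 18.2 and 99.2 CPM and 92.96, 52.6 and 184 CPM (-1.18 ± 0.14, adjusted p = 0.0025). The call of *Ier5* did not hold without batch 1 (adjusted p = 0.0905) or without batch 2 (adjusted p = 0.141), and over 12 alternatives it ran from 7.5e-06 to 0.973.

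Reads of 42 bases can be shared by similar genes, and such reads were not counted when they aligned to several places. Of the stretches of this length in the longest transcript, 19.5% in *Mdm4* recurred in its pseudogene *Mdm4-ps*, 19.3% in *Sfn* in transcripts of 3 other genes, 11.6% in *Tnfrsf10b*, 7.35% in *Rrm2b*, 3.68% in *Ckap2* and 1.62% in *Zmat3*. The levels of these genes are therefore less certain than those of the others. Among the 7 genes that rose, the share was 0.644% in *Mdm2* and 0 in the other 6, and no member shared exons on its strand with another gene.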

How the data were processed

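RNA-seq was done on 6 cultures, 3 iASPP KO and 3 iASPP WT, grouped by the labels. The authors trimmed adapters (cutadapt 2.10), aligned single reads of 42 bases to mm10 (GRCm38) with STAR 2.7.3 and GENCODE vM25, and counted reads over exons for each gene name with featureCounts 2.0.0, taking strand into account (versions from the submitters' processing notes). The deposited values are these raw counts. A deposited table of the authors' own DESeq2 comparison, with fold changes and p-values, was not used.

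The test was edgeR's quasi-likelihood F-test (edgeR 4.0.16, R 4.3.3), after filterByExpr and TMM scaling. Batch was a term beside condition, and p-values were adjusted by Benjamini-Hochberg over 14916 genes, at a threshold of 0.05. SEs were derived from the log2 fold change and its F. For values within a batch, log2 CPM took a prior count of 2. Library totals of 20202517 to 25157117 limit the precision of low genes (counting error only). The replicate numbers pair the cultures: the labels give each number as a batch, and each batch was divided into both cultures. Deviations of paired cultures correlated at 0.53, 0.69 and 0.75 over 8654 genes. Whether the batches came from separate litters was not given in the sources used here. With batch in the model, p-values weigh the fitted difference between paired cultures against the variation of that difference from batch to batch. They do not measure the differences in level between batches. The variance of each gene was estimated with information from the other genes (2 residual and a median of 8.17 prior degrees of freedom). Libraries of one group differed far beyond sampling noise (chi-square per gene 25.4 to 104).

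Members and lists were chosen with earlier results of these data known. All 37 members are named. Values in every library are given for members past the threshold, for those with an unadjusted p under 0.05 and for a set list of 12 (*Mdm2*, *Cdkn1a*, *Ccng1*, *Trp53inp1*, *Sesn1*, *Sesn2*, *Gadd45a*, *Fas*, *Perp*, *Sfn*, *Gdf15* and *Zmat3*), and from the other lists for *Ppp1r13l*, *Trp53*, *Trp63* and p53 regulators or targets past the threshold. Steps were tested on simulated data. The alternatives were no batch term, DESeq2 1.42.0, limma-voom (limma 3.58.1), RLE and upper-quartile scaling, no filter, at least 10 counts in every library, robust dispersion, no genes under 300 bases, and each batch left out. Promoter windows are from RefSeq, and gene positions from the count table. Python 3.11.15 with pandas 2.3.3, numpy 2.4.6 and matplotlib 3.10.9 served for tables and plots.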

Additional observations from a re-analysis of the deposited data

How the results depend on the processing

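The median log2 fold change of the 37 genes stayed positive and within the spread between batches under all 12 alternatives (0.14 to 0.30 with 1 batch left out). The replicate block, that is the pairing of cultures by batch, decided the calls. With no replicate block, 0 of the 37 genes were significantly higher in iASPP KO in place of 7, 0 regulators were higher in iASPP WT in place of 3, and 0 other p53 targets passed in either direction in place of 3 and 2. With 1 batch left out, the number of the 37 genes higher in iASPP KO ran from 4 to 8, while the share of all genes ran from 1.09% to 5.2%. The number higher in iASPP WT ran from 0 to 1, and that share from 0.768% to 4.34%. The number of regulators higher in iASPP WT ran from 1 to 4, each time with *Ppp1r13l*, the deleted gene, among them. The number of the 37 genes higher in iASPP WT was 1 in place of 0 with DESeq2 (3.31% of all genes), with no filter on low counts (1.54%) and with robust dispersion (2.41%). *Mdm2*, *Trp53inp1* and *Plk3* passed under all 11 alternatives with the block.

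Some log2 fold changes that did not pass turned direction. *Perp* was at 0.0026 with at least 10 counts in every library and at 0.0029 without genes under 300 bases. Leaving out 1 batch at a time gave values of -0.012 to 0.29 for *Ppm1d*, -0.040 to 0.13 for *Ccng1*, -0.24 to 0.015 for *Sfn*, -0.28 to 0.14 for *Plk2*, -0.12 to 0.38 for *Polk*, -0.048 to 0.26 for *Xpc*, -0.17 to 0.50 for *Sesn1*, -0.27 to 0.044 for *Phlda3*, -0.84 to 0.21 for *Pidd1*, -0.54 to 0.028 for *Fas*, -0.080 to 0.36 for *Aen*, -0.068 to 0.047 for *Perp* and -0.15 to 0.32 for *Trp53*. The cause of these changes was not tested. With 3 batches and 2 residual degrees of freedom, changes of low genes such as *Gdf15* and *Pidd1* were least precise.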
